A study of Mus musculus with 17 samples.

Results

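The 29 genes of cholesterol synthesis, uptake and efflux described here were chosen by name, and each was found in all 17 files, among 33840 gene symbols in the intestinal files and 24594 gene identifiers in the files labelled liver. By role they comprise 19 enzymes of synthesis (8 for mevalonate steps, 3 for squalene and lanosterol steps and 8 for the steps from lanosterol to cholesterol), 4 genes of sterol sensing and transport, 2 of uptake and 4 of efflux and esterification. The 17 bulk RNA-seq libraries of wild-type mice fall into 7 groups. Of these, 8 libraries came from the small intestine as intestinal epithelial cells (IEC, the lining of villi and crypts) or as crypts (the pits that hold stem and dividing cells), each taken following sham surgery or hepatectomy (an operation that removes liver tissue), each group with 2 libraries. A further 9 libraries bear the tissue label liver and the treatment label DSS, which all of them share, day 0 included; 3 are labelled day 0, 3 day 10 and 3 day 20. Age, sex and strain of the mice, and the share of liver removed, are not given in the sources used here.

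As background, cholesterol is built from acetyl-CoA through mevalonate, isoprenoid diphosphates, squalene and lanosterol. When sterols in the endoplasmic reticulum run low, Scap escorts the transcription factor SREBP-2 (gene Srebf2) to the Golgi, where it is cut and freed to activate the genes of synthesis. Insig1 holds Scap back when sterols are plentiful. In the gut, Npc1l1 takes up dietary and biliary cholesterol, Soat2 esterifies it for chylomicrons, Abcg5 and Abcg8 together pump sterols back into the lumen, and Abca1 passes cholesterol to HDL. Abca1, Abcg5, Abcg8 and Mylip are known targets of the sterol-activated LXR receptors.

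Intestinal libraries held 26609786 to 43580050 counts each, and those labelled liver 12742629 to 42669857. Levels are given as CPM (counts per 1e+06, scaled by TMM within the intestinal or the liver-labelled table) with the SD over libraries, and differences as log2 fold changes with their SE. Genes of each table that passed a filter on low counts were tested with the quasi-likelihood method of edgeR. A gene was called when its adjusted p lay under 0.05. Shares of all genes called are shares of the genes tested. The 2 tables were normalised and tested apart, so levels are not compared between them. All 29 genes passed the filter on low counts in both tables. Whether replicates are separate animals is not stated; the spread behind each p-value is that of these libraries and may be technical. The column names of the sham and the hepatectomy libraries carry running numbers from separate series, so a difference between series cannot be told apart from hepatectomy. In bulk tissue, fewer cells of a type and less RNA per cell cannot be told apart either. Among the libraries labelled liver, the hepatocyte product Alb stood at 53491 to 58051 CPM at day 20 and at 278 to 1165 CPM at day 0 and day 10. Olfm4, a crypt stem cell marker, stood at 41.3 to 62.0 CPM at day 20 and at 2625 to 7184 CPM in the 6 others. Libraries labelled liver at day 0 and day 10 therefore go against their tissue label, and comparisons of day 20 with them set liver-like against gut-like RNA. In day 10, replicate 3 stood apart with the lowest depth and also in markers. The Paneth cell marker Lyz1 stood at 784 CPM there, against 6600 and 5730 in the other day 10 libraries. Alb stood at 1165 CPM, against 377 and 548.

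The promoters of the synthesis genes were read to show what letters they share. RefSeq promoters (GRCm38.p6, 250 bases before to 50 after a transcript start) were found for 24 of the 29 genes. Fdps, Fdft1, Sqle, Stard4 and Soat2 had no entry in the set that was read. That set left out the chromosome of Stard4, so the shares of all genes below leave it out too. The NF-Y box CCAAT, read on both strands (ATTGG on the reverse), was present for 15 of 16 synthesis genes with an entry and for 41.1% of all 27025 genes. The Sp1 box GGGCGG (reverse CCGCCC) was present for 14 of those 16 and for 38.2% of all genes. The sterol regulatory element consensus TCACNCCAC (reverse GTGGNGTGA) was found for 1 gene of the list, Hmgcs1, and for 1.44% of all genes. The classic sterol regulatory element, which contains a spelling of that consensus and was also read on both strands, matched no gene of the list and 0.0999% of all genes. A missing match says only that these letters are not in this window. The stretches below belong to genes whose changes are described in the following paragraphs, read 5′ to 3′ on the gene's strand. They cover the 100 bases before the start, except for Hmgcs1 (182 to 83 bases before), Insig1 (230 to 131 before) and Abcg8 (120 to 1 before). Capitals mark NF-Y boxes and, in Hmgcs1 alone, also the sterol regulatory element.
Hmgcs1: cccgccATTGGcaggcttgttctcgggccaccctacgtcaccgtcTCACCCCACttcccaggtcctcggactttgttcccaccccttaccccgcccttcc
Idi1: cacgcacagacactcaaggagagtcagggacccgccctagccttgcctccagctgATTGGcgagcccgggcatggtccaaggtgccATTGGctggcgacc
Lss: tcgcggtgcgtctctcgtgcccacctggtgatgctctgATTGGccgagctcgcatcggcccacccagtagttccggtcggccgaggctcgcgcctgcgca
Cyp51: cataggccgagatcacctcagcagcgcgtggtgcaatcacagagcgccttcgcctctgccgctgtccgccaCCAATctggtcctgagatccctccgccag
Dhcr7: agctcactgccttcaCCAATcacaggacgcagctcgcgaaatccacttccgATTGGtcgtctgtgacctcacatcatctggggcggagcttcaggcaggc
Sc5d: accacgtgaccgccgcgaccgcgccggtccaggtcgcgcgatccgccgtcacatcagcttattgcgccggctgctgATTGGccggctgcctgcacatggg
Insig1: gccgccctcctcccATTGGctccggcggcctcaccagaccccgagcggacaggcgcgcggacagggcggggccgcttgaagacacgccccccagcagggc
Abcg8: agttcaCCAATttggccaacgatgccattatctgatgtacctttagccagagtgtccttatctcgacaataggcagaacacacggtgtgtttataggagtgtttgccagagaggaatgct
These lie at chr13:119690169-119690268 (plus strand), chr13:8885506-8885605 (plus), chr10:76531505-76531604 (plus), chr5:4104698-4104797 (minus), chr7:143830114-143830213 (plus, before the most downstream of 3 starts), chr9:42264301-42264400 (minus), chr5:28071182-28071281 (plus) and chr17:84683001-84683120 (plus). The last stretch spans the 109 bases between the divergent starts of Abcg5 and Abcg8.

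In the 4 intestinal groups, the sums of synthesis and of efflux genes had their extremes in opposite groups. The 19 synthesis genes together stood at 1441 and 1453 CPM in sham crypts, 1021 and 1042 in hepatectomy crypts, 1138 and 1143 in sham IEC and 877 and 915 in hepatectomy IEC. Abcg5, Abcg8, Abca1 and Soat2 together stood at 176 and 180, 272 and 275, 360.5 and 368, and 636 and 672 CPM in the same order of groups. Sham crypts were thus highest for synthesis and lowest for efflux and esterification, and hepatectomy IEC the reverse, with no overlap between the groups. Sham IEC lay above hepatectomy crypts in both sums. Of the 29 genes, 19 had their highest intestinal mean in sham crypts and 10 in hepatectomy IEC. In the libraries labelled liver the synthesis sum was 1090 to 1306 CPM at day 0, 524 to 703 at day 10 and 3074 to 3163 at day 20, again without overlap.

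**Figure D1:**
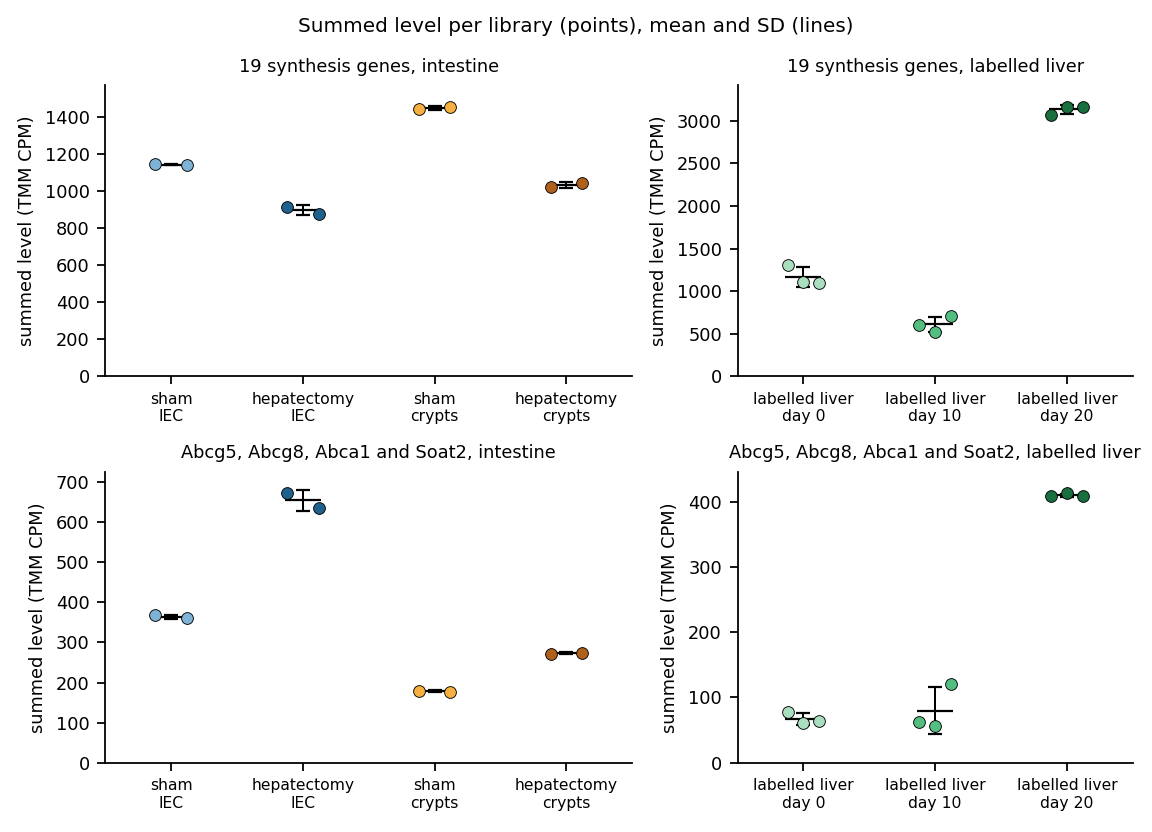
Summed TMM-normalised CPM (vertical axes, starting at 0) of the 19 synthesis genes (top) and of Abcg5, Abcg8, Abca1 and Soat2 (bottom) in the 4 intestinal groups (left) and the 3 days labelled liver (right); points are libraries, lines the mean and SD. Synthesis is highest in sham crypts (1441 and 1453 CPM) and efflux in hepatectomy IEC (636 and 672 CPM), and day 20 is highest on the right.

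Hepatectomy was compared with sham in crypts and in IEC, which asks how loss of liver tissue is followed in the gut epithelium. In crypts, 19 of the 29 genes fell, 5 rose and 5 were not called, against 37.5% of all 18207 genes called (18.3% lower, 19.2% higher). In IEC, 15 fell, 9 rose and 5 were not called, against 37.8% called (18.3% lower, 19.5% higher). The median change of the 19 synthesis genes was -0.48 in crypts and -0.33 in IEC, beside 0.0073 and 0.024 over all genes. The fractions share no library, but whether they share mice is not stated. Of the 29 genes, 14 fell in both, 5 rose in both and 3 fell in crypts while rising in IEC. The share of all genes called alike in both fractions is not given here. Of those 3, Dhcr7 lost its IEC call in several alternatives, as given below. Libraries of hepatectomy and sham did not overlap for 27 of the 29 genes in crypts and for 27 in IEC, more than were called. With 2 libraries per group, lack of overlap therefore does not set a gene apart, and its share over all genes is not given here.

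**Figure D2:**
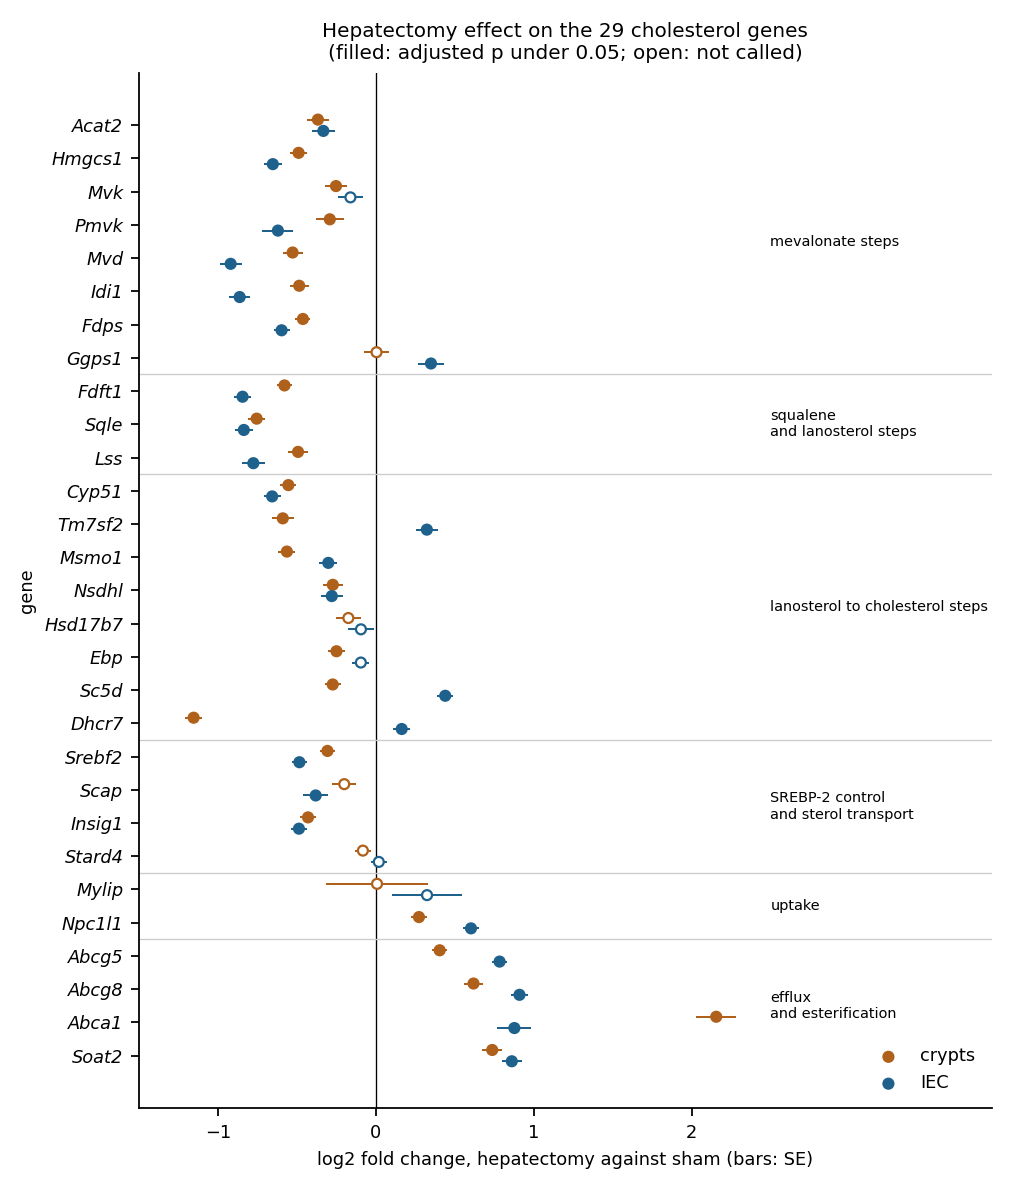
Log2 fold change of hepatectomy against sham (horizontal axis, bars are SE) for each of the 29 genes by role, in crypts (brown) and IEC (blue); filled points passed an adjusted p of 0.05. Most synthesis genes lie left of 0 in both fractions, Tm7sf2, Sc5d and Dhcr7 lie on opposite sides, and Npc1l1, Abcg5, Abcg8, Abca1 and Soat2 lie to the right in both.

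Of the 8 genes of the mevalonate steps, 7 fell in crypts and Ggps1 was not called, while in IEC 6 fell, Ggps1 rose and Mvk was not called. Hmgcs1 (chromosome 13, 119690379 to 119708260, plus strand), the cytosolic synthase that makes HMG-CoA, stood at 147 and 147 CPM in sham crypts and 105 and 105 in hepatectomy crypts, and at 134 and 134 against 89.8 and 80.7 in IEC. Mvd, which makes isopentenyl diphosphate, stood at 59.8 and 56.2 against 39.5 and 40.9 CPM in crypts and at 39.4 and 42.7 against 22.1 and 21.3 in IEC. In both genes the hepatectomy libraries lay below every sham library of their fraction. Their changes were -0.49 ± 0.054 and -0.53 ± 0.063 in crypts, and -0.65 ± 0.055 and -0.92 ± 0.069 in IEC, with adjusted p-values from edgeR of 4.7e-05 or less.

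Idi1 (chromosome 13, 8885501 to 8892451, plus strand) converts isopentenyl diphosphate to its isomer, and stood at 103 and 110 CPM in sham crypts, 73.2 and 79.3 in hepatectomy crypts, 83.4 and 87.1 in sham IEC and 48.8 and 45 in hepatectomy IEC. Fdps, which joins the isoprenoid units into farnesyl diphosphate, stood at 109 and 110, 79.1 and 79.9, 77.1 and 75.6, and 50.8 and 50.2 CPM in that order. For these genes hepatectomy crypts came down to about the level of sham IEC or below it, and hepatectomy IEC lay lowest. Acat2, Mvk and Pmvk, which act earlier, fell by 0.37, 0.25 and 0.29 in crypts, and Acat2 and Pmvk by 0.33 and 0.62 in IEC, while Mvk was not called there (-0.16, adjusted p = 0.13). Ggps1 makes geranylgeranyl diphosphate, a branch used for protein prenylation rather than sterols. It stood at 18.5 and 20.1 against 19.7 and 19 CPM in crypts (0.0052 ± 0.08, not called) and rose in IEC from 17.1 and 17.9 to 23.3 and 21.3 CPM (0.35 ± 0.083, adjusted p = 0.0055). In crypts the calls of Mvk and Pmvk were lost with DESeq2 (adjusted p = 0.083 and 0.063) and, like that of Nsdhl, without single crypt libraries. The IEC call of Ggps1 was lost without replicate 1 of sham IEC (0.30, adjusted p = 0.061) or of hepatectomy IEC (0.27, adjusted p = 0.072).

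All 3 enzymes of the squalene and lanosterol steps fell in both fractions. Fdft1, the squalene synthase that commits the pathway to sterols, stood at 93.1 and 94.7 against 62.3 and 63.4 CPM in crypts and at 69.6 and 70.5 against 39.6 and 38.5 in IEC. Sqle (chromosome 15, 59315077 to 59331192, plus strand), the squalene epoxidase and a slow step of the pathway, stood at 131 and 132 against 74.8 and 80.8 CPM in crypts and at 82.1 and 80.7 against 46.3 and 44.9 in IEC. Lss, which closes the ring to lanosterol, stood at 48.2 and 49 against 34.7 and 34.4 CPM in crypts and at 32.1 and 31 against 17.4 and 19.5 in IEC. No library of hepatectomy overlapped sham in any of them, as was so for most genes of the list. The changes ranged from -0.75 ± 0.053 (Sqle) to -0.49 ± 0.065 (Lss) in crypts and from -0.84 ± 0.053 (Fdft1) to -0.78 ± 0.072 (Lss) in IEC.

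The late steps split by fraction. In crypts 7 of the 8 genes fell and Hsd17b7 was not called, whereas in IEC 3 fell, 3 rose and 2 were not called. Cyp51, the lanosterol demethylase, fell in both, from 111 and 117 to 76 and 79.3 CPM in crypts and from 85.5 and 84.5 to 54.3 and 53.6 in IEC. Msmo1, the C4-methyl oxidase, did so as well, from 102 and 105 to 72.3 and 68 CPM in crypts and from 73.4 and 77.8 to 61.9 and 60.9 in IEC. Dhcr7, Sc5d and Tm7sf2 did not follow these genes in IEC.

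Dhcr7 (chromosome 7, 143823145 to 143848410, plus strand), the reductase that makes cholesterol from 7-dehydrocholesterol, stood at 86.1 and 84.9 CPM in sham crypts and 37.5 and 39.3 in hepatectomy crypts, the largest fall of the 29 genes there (-1.15 ± 0.053, adjusted p = 1.2e-08). In IEC it stood at 61.7 and 61 CPM after sham and at 69.8 and 67.7 after hepatectomy (0.16 ± 0.053, adjusted p = 0.028). That IEC call was lost with DESeq2 (adjusted p = 0.16), without the filter on low counts (0.10, adjusted p = 0.32) and without any 1 library of sham IEC, sham crypts or hepatectomy IEC. Hepatectomy crypts lay below all 4 sham libraries of either fraction.

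Sc5d (chromosome 9, 42251595 to 42264256, minus strand), the lathosterol oxidase that makes the substrate of Dhcr7, stood at 81.6 and 81.7 against 67.4 and 67.8 CPM in crypts (-0.27 ± 0.05) but at 92.6 and 88.2 against 124 and 121 in IEC (0.44 ± 0.05, adjusted p = 1.9e-05). Tm7sf2, a C14 sterol reductase, stood at 25.3 and 24.7 against 17.2 and 16.1 CPM in crypts (-0.59 ± 0.071) and at 28.9 and 27.1 against 34.5 and 35.7 in IEC (0.32 ± 0.07). The libraries of sham and hepatectomy did not overlap in either fraction. The difference between the crypt and the IEC effect was itself tested, and was -1.32 ± 0.075 for Dhcr7 (adjusted p = 4.3e-07), -0.71 ± 0.07 for Sc5d (adjusted p = 3.6e-05) and -0.91 ± 0.1 for Tm7sf2 (adjusted p = 8e-05). These 3 held under every alternative run. Of the other late genes, Nsdhl fell by 0.27 in crypts and by 0.28 in IEC, Ebp fell by 0.25 in crypts (-0.094 in IEC, not called) and Hsd17b7 was called in neither (-0.17 and -0.093).

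**Figure D3:**
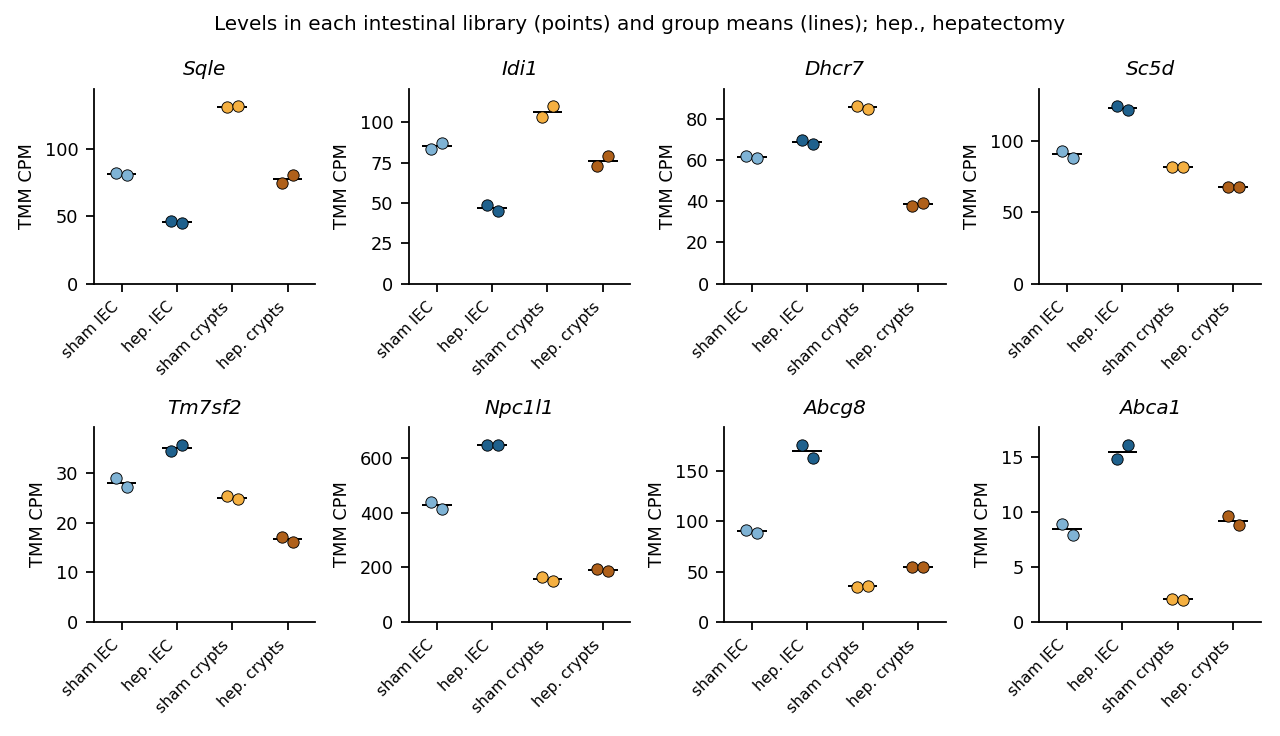
Level (TMM-normalised CPM, vertical axes from 0) of 8 genes in each intestinal library; points are libraries, lines group means. Sqle and Idi1 are lower after hepatectomy in both fractions, Dhcr7, Sc5d and Tm7sf2 are lower in crypts but not in IEC, and Npc1l1, Abcg8 and Abca1 are higher after hepatectomy in both.

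In all, 11 of the 29 genes differed between the fractions in their hepatectomy effect, 4 with a higher and 7 with a lower value in crypts, against 19.2% of all genes (9.15% higher, 10.1% lower). Besides the 3 late enzymes, the fall was smaller in crypts than in IEC for Mvd (difference 0.39 ± 0.093), Idi1 (0.38 ± 0.089) and Fdft1 (0.27 ± 0.072), and larger in crypts for Msmo1 (-0.26 ± 0.078). The remaining 4, Abca1, Abcg5, Abcg8 and Npc1l1, are given below. Without replicate 2 of sham IEC, Mvd (0.34) and Idi1 (0.35) lost their call. Whichever intestinal library was left out, fewer of the 29 genes were called, and the share of all genes called was lower too. Each such fit left a group with a single library. The calls of Msmo1 and Fdft1 were lost in 10 and 6 alternatives.

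Among the genes of SREBP-2 control, 2 of 4 fell in crypts and 3 in IEC. Srebf2 (chromosome 15, 82147181 to 82205379, plus strand) stood at 199.5 and 191 against 158 and 158 CPM in crypts and at 153 and 150 against 110 and 106 in IEC, changes of -0.31 ± 0.047 and -0.48 ± 0.048. Insig1, itself a target of SREBP-2, stood at 92.1 and 91.2 against 67.5 and 68.6 CPM in crypts and at 87.2 and 89.1 against 64.3 and 61.6 in IEC, changes of -0.43 ± 0.05 and -0.49 ± 0.051. Both genes were lower in every hepatectomy library than in every sham library of the same fraction. Scap stood at 45.9 and 40.6 against 37.3 and 37.9 CPM in crypts (-0.20 ± 0.074, adjusted p = 0.053, not called) and fell in IEC from 33.1 and 35.4 to 25.1 and 27.6 CPM (-0.38 ± 0.08). Stard4, a soluble carrier of sterols between membranes, was called in neither fraction, at 146 and 141 against 137 and 135 CPM in crypts and 183 and 171 against 180 and 179 in IEC (-0.081 ± 0.049 and 0.02 ± 0.049).

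Npc1l1, the efflux genes and Soat2 rose in both fractions, while Mylip was called in neither. Npc1l1 (chromosome 11, 6211013 to 6230143, minus strand), the brush border cholesterol importer, stood at 163 and 151 against 192 and 187 CPM in crypts and at 439 and 412 against 648 and 646 in IEC. Its rise was 0.27 ± 0.05 in crypts (adjusted p = 0.0011) and 0.60 ± 0.05 in IEC (adjusted p = 1.2e-06), and smaller in crypts by a difference of -0.33 ± 0.07 (adjusted p = 0.0065), which was lost without replicate 1 of sham crypts (-0.23, adjusted p = 0.075). Mylip, a ubiquitin ligase that lowers lipoprotein uptake, was scarce, at 0.412 and 0.505 against 0.411 and 0.512 CPM in crypts (14 to 23 counts) and 2.28 and 2.46 against 2.82 and 3.11 in IEC, changes of 0.0083 ± 0.32 and 0.33 ± 0.22.

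Abcg5 (chromosome 17, 84658234 to 84683011, minus strand) and its divergent partner Abcg8 (84676302 to 84700333, plus strand) rose together. Abcg5 stood at 70.5 and 72.2 against 93.9 and 94.9 CPM in crypts and at 139.9 and 143 against 245 and 242 in IEC. Abcg8 stood at 34.9 and 36.1 against 55 and 54.1 CPM in crypts and at 91.3 and 88.6 against 176 and 162 in IEC. Their rises of 0.41 ± 0.046 and 0.62 ± 0.057 in crypts were smaller than those of 0.78 ± 0.045 and 0.91 ± 0.055 in IEC, by -0.38 ± 0.064 (adjusted p = 0.0015) and -0.29 ± 0.079 (adjusted p = 0.023). Abcg8's difference was lost with DESeq2 (adjusted p = 0.067) and in most fits that left out a single library.

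Abca1 (chromosome 4, 53030787 to 53159895, minus strand) had the largest change of the 29 genes in crypts, from 2.12 and 2.02 to 9.64 and 8.83 CPM (2.16 ± 0.13, adjusted p = 1.1e-07), and rose in IEC from 8.96 and 7.9 to 14.9 and 16.1 CPM (0.88 ± 0.11). Its crypt effect was larger by 1.28 ± 0.17 (adjusted p = 3e-04). Soat2 (chromosome 15, 102150526 to 102163469, plus strand), the enterocyte enzyme that esterifies absorbed cholesterol, stood at 72.1 and 65.9 against 113 and 117 CPM in crypts and at 128 and 121 against 237 and 215 in IEC. The rises of 0.74 ± 0.062 and 0.86 ± 0.062 differed by -0.12 ± 0.087 between the fractions, which was not called. Hepatectomy libraries of Abca1 and Soat2 lay above all sham libraries of their fraction.

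Other genes of the pathway were read from lists written beside the 29. Among 11 tested genes of fatty acid synthesis under SREBP-1, 7 fell and 0 rose in crypts and 9 fell and 1 rose in IEC (medians -0.46 and -0.66). Acly, which supplies acetyl-CoA, fell by 0.73 and by 0.76, and the fatty acid synthase Fasn by 0.47 and 1.04. Among 12 genes that use isoprenoids outside sterol synthesis, 2 rose and 1 fell in crypts and 1 rose and 4 fell in IEC. Among 18 other sterol genes, 5 rose and 4 fell in crypts and 10 rose and 3 fell in IEC. Cyp27a1, which makes an oxysterol, rose by 0.68 ± 0.084 in crypts and by 0.93 ± 0.073 in IEC. Scarb1, a receptor for HDL, rose by 2.01 ± 0.15 in IEC, with no call in crypts (-0.14 ± 0.15). Srebf1, which encodes SREBP-1, fell by 0.39 ± 0.061 in crypts and rose by 0.31 ± 0.061 in IEC. Tmem97, a sterol-regulated membrane protein, fell by 0.27 and 0.45.

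Markers of cell type moved with these changes. All 14 enterocyte genes rose in both fractions, their sum going from 5565 and 5638 to 13315 and 13380 CPM in crypts and from 31435 and 31889 to 78663 and 82091 CPM in IEC. Of 18 mitosis genes, 17 fell in crypts (1601 and 1606 to 1061 and 1069 CPM) and 18 in IEC (1019 and 1020.4 to 528 and 533 CPM). All 8 goblet cell genes fell in crypts, from a sum of 6252 and 6277 to 2701 and 2778 CPM. In IEC 3 of them rose and 3 fell, with sums of 7354 and 7652 after sham and 8743 and 9003 CPM after hepatectomy. Of 10 crypt stem cell genes, 4 fell and 0 rose in crypts (2117 and 2160.2 to 1335 and 1345 CPM) and 7 fell and 0 rose in IEC (1849.6 and 1851 to 957 and 973 CPM). Paneth cell genes summed to 1438 and 1578 CPM in sham crypts and to 652 and 654 in hepatectomy crypts. In IEC they summed to 3805 and 4026 CPM after sham and to 2467 and 2534 after hepatectomy. Of 10 lymphocyte genes, 9 fell in crypts (140.1 and 140.5 to 41.7 and 45.5 CPM) and 7 in IEC (425 and 433 to 167 and 173 CPM). Their part in the changes of the cholesterol genes was not tested.

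Crypts were also compared with IEC within each operation. In sham, 15 of the 29 genes were higher in crypts and 8 lower, against 38.6% of all genes called (19.3% in each direction). Of the 19 synthesis genes 13 were higher, led by Sqle (131 ± 0.48 against 81.4 ± 1 CPM, SD, n = 2; 0.69 ± 0.053) and Lss (0.62 ± 0.066). Sc5d was lower (-0.15 ± 0.05). Its call was lost with DESeq2 (adjusted p = 0.092), without the filter on low counts (-0.11, edgeR adjusted p = 0.27) and without any 1 sham library. Both uptake genes and all 4 of efflux and esterification were lower in crypts. These included Npc1l1 at 157 ± 8.5 against 426 ± 19 CPM (-1.44 ± 0.051), Abca1 (-2.03 ± 0.13) and Mylip (-2.34 ± 0.27). After hepatectomy, 15 genes were higher in crypts and 10 lower, against 51.9% of all genes called (26.3% higher, 25.6% lower). Mvd (0.89 ± 0.068) and Lss (0.91 ± 0.07) were among those higher. Tm7sf2 (-1.08 ± 0.071), Sc5d (-0.86 ± 0.05) and Dhcr7 (-0.84 ± 0.054) stood lower in crypts, whereas in sham Dhcr7 had been higher in crypts (0.48 ± 0.052). These comparisons reuse the libraries of the hepatectomy comparisons. In sham, enterocyte genes summed to 5565 and 5638 CPM in crypts and to 31435 and 31889 in IEC. Mitosis genes summed to 1601 and 1606 CPM in crypts and to 1019 and 1020.4 in IEC. Crypt stem cell genes were only slightly higher in crypts, at 2117 and 2160.2 against 1849.6 and 1851 CPM. Paneth cell genes were lower in crypts, at 1438 and 1578 against 3805 and 4026 CPM. The share of each cell type in a fraction was not measured.

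In the libraries labelled liver, day 10 was compared with day 0, both of which hold gut-like RNA. Of the 29 genes 20 fell, 1 rose and 8 were not called, against 43.6% of all 16694 genes called (18.8% lower, 24.7% higher). Of the 19 synthesis genes 17 fell and 0 rose, with a median of -0.99 beside 0.10 over all genes, while Ggps1 and Hsd17b7 were not called. Sqle stood at 119, 94 and 91.6 CPM at day 0 and at 40.7, 29.7 and 52.9 at day 10 (-1.30 ± 0.2, adjusted p = 0.0011). Idi1 stood at 110, 95 and 101 against 45.5, 32.4 and 54 CPM (-1.22 ± 0.18). Dhcr7 stood at 88.2, 81.8 and 78.2 against 37.6, 30.4 and 46.9 CPM (-1.11 ± 0.16), so that every day 10 library lay below every day 0 library for all 3 genes.

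Further along the list, Hmgcs1 stood at 86.8, 128 and 135 CPM at day 0 and 65.4, 53.3 and 86.5 at day 10 (-0.77 ± 0.21), where the lowest day 0 and the highest day 10 library nearly met. Insig1 fell from 72.9, 66.3 and 64.4 to 40.6, 31.3 and 52.6 CPM (-0.71 ± 0.18), and Stard4 from 152, 126 and 128 to 77.2, 74.8 and 87.7 CPM (-0.76 ± 0.14). Srebf2 stood at 104, 188 and 176 against 110, 98.5 and 105 CPM, groups that overlap through replicate 1 of day 0, with a change of -0.58 ± 0.19 and of -0.92 without that library. Scap was not called (-0.19 ± 0.15), but was lower without the same library (-0.44, adjusted p = 0.022). The calls of Srebf2, Tm7sf2 and Ebp were lost in several alternatives, as were those of Hmgcs1 and Sc5d under the stricter filter (adjusted p = 0.062 for both).

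Uptake and efflux at day 10 depended on replicate 3. Abca1 stood at 1.17, 1.37 and 1.05 CPM at day 0 and at 1.82, 1.96 and 6.75 at day 10 (1.498 ± 0.41, adjusted p = 0.014), and without replicate 3 of day 10 its change was 0.60 (adjusted p = 0.028). The call was lost when only day 0 and day 10 were fitted (1.43, adjusted p = 0.059). Npc1l1 stood at 12.6, 27.7 and 26.5 against 31.3, 21.1 and 89.7 CPM, and Soat2 at 28.6, 21.3 and 22.3 against 15.6, 15.6 and 35.9. Neither was called. Soat2 was lower without replicate 3 (-0.66, adjusted p = 0.0071), and Npc1l1 was higher without replicate 1 (1.12, adjusted p = 0.041) or 2 (1.41, adjusted p = 0.020) of day 10 and without the filter on low counts (0.81, adjusted p = 0.023). The 14 enterocyte genes summed to 3834 CPM in replicate 3 of day 10, against 1380.1 and 1374.5 in the other day 10 libraries. At day 0 they summed to 1201 to 1258 CPM, and 10 of the 14 were higher at day 10. The same list summed to 31326 to 33386 CPM in the liver-like day 20 libraries, so it does not mark enterocytes alone here. Without replicate 3 of day 10, 22 of the 29 genes fell and 1 rose, where 40.7% of all genes were called. Abcg5 (0.29 ± 0.24) and Abcg8 (0.56 ± 0.22) were not called, but Abcg8 was higher under the stricter filter (0.76, adjusted p = 0.034) and without replicate 1 of day 10 (0.60, adjusted p = 0.027). Mitosis genes fell as well, 12 of 18 with 1 higher. The sum of the hepatocyte list was 2370 to 4372 CPM at day 10 and 1187 to 2803 at day 0, and the part of either in these changes was not tested.

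**Figure D4:**
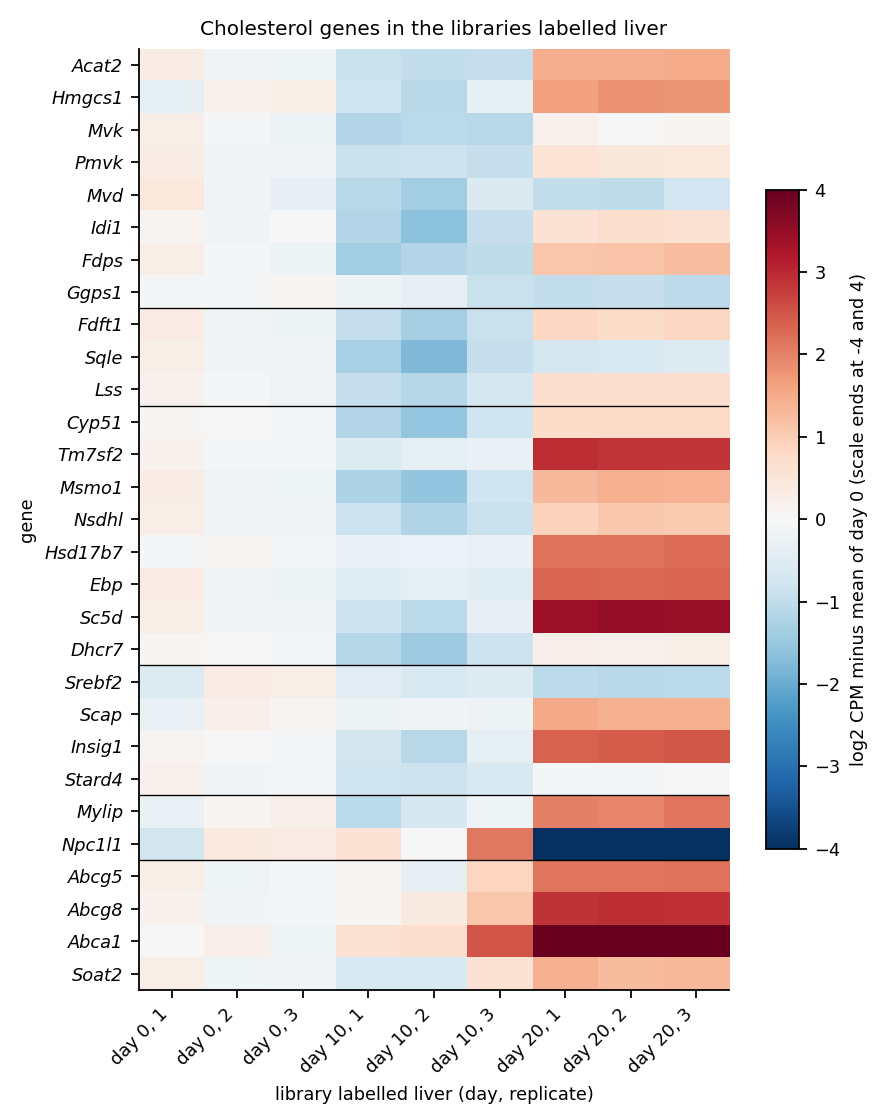
Log2 CPM of each of the 29 genes (rows, by role) in the 9 libraries labelled liver (columns), minus the mean of day 0; red is higher, blue lower, and colours saturate at -4 and 4. Synthesis genes are lower in all 3 day 10 libraries, and day 20 shows Abca1 and Sc5d far higher and Npc1l1 far lower.

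Day 20, the liver-like group, differed from day 0 in 26 of the 29 genes (21 higher, 5 lower), where 71.4% of all genes were called (33.3% higher, 38.1% lower), and from day 10 in 28 (25 higher, 3 lower), where 71.1% were (30.8% higher, 40.3% lower). Both comparisons share the day 20 libraries. Sc5d stood at 658, 706 and 689 CPM at day 20, against 73, 56.5 and 55.9 at day 0 and 34.9, 28.8 and 48.7 at day 10 (3.47 ± 0.22 and 4.19 ± 0.23). Insig1, at 346, 364 and 378 CPM, and Hmgcs1, at 358, 398 and 385, were above every library of the other days. Abca1 stood at 130, 135 and 127 CPM, 6.76 ± 0.44 above day 0. Of the 8 late enzymes, 7 were higher than at day 0, among them Tm7sf2 (2.89 ± 0.15) and Ebp (2.30 ± 0.17).

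Not all synthesis genes were higher in the liver-like libraries. Sqle stood at 62.3, 66.5 and 70.9 CPM at day 20, lower than at day 0 (-0.61 ± 0.19, adjusted p = 0.013, lost under the stricter filter at 0.063) and higher than at day 10 (0.70 ± 0.19). Mvd, at 22.2, 22 and 26.2 CPM, was lower than at day 0 (-0.95 ± 0.23) and not called against day 10 (0.069 ± 0.23). Ggps1 (-0.99 ± 0.19) and Srebf2, at 73.3, 70.4 and 71.3 CPM (-1.12 ± 0.2), were lower than at day 0 while Scap was higher (1.44 ± 0.15). Npc1l1 was nearly absent at day 20, with 6 to 10 counts per library (0.368, 0.232 and 0.216 CPM), 80.6-fold below day 0. Abcg5 (135, 137 and 140 CPM) and Abcg8 (79.9, 83.4 and 81.3 CPM) stood 2.15 ± 0.24 and 2.93 ± 0.23 above day 0. Soat2 stood at 63.5, 56.9 and 60.1 CPM (1.32 ± 0.27), and Mylip at 9.01, 8.59 and 9.76 CPM (2.03 ± 0.26).

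Levels of different genes were compared per kb of annotated exon. In sham IEC the most abundant of the 29 were Npc1l1 (95.3 ± 4.3 CPM per kb), Soat2 (56.2 ± 2.1) and Abcg5 (52.1 ± 0.75). In sham crypts Ebp, the sterol isomerase, led (43.9 ± 0.73), followed by Npc1l1 (35.1 ± 1.9) and Acat2 (34.6 ± 1.4), which did not differ beyond their spread. In the libraries of day 20 Ebp (187 ± 3.2), Sc5d (141 ± 5) and Insig1 (117 ± 5.2) led. Some counts are uncertain because the strand used in counting is not stated. Exons of 11 of the 29 genes overlap those of another annotated gene, by more than 10% of their exon length for Hmgcs1, Fdps, Fdft1, Tm7sf2 and Scap. Acat2 has a close copy, Acat3, with which reads may be shared.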

How the data were processed

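The deposited intestinal files hold expected counts per gene symbol on mm10, of which 36.7% of values are not whole, and were rounded. For the libraries labelled liver the deposited values are whole counts by Entrez identifier, and 24570 of 24594 identifiers matched a RefSeq symbol; the 24 others hold 3.93 to 22.1% of a library's counts. STAR and Partek are named in the submitters' processing notes, with no version, and no source used here names the counting program or its strand setting. Ends of genes in the files lie 1 base past GENCODE vM21 and were corrected. Each table was fitted whole in R 4.3.3 with edgeR 4.0.16 (TMM, filterByExpr with a minimum count of 10 and total of 15, quasi-likelihood F test, Benjamini-Hochberg), which gave 8 comparisons. Alternatives were DESeq2 1.42.0, RLE, no low-count filter, a filter that was stricter (some group with 1 CPM or more throughout, and a highest group mean of 5 CPM or more), a replicate block, only the groups compared, and leaving out each library. The code was tested on simulated counts. Genes with values in every library were listed by role. The members, lists and this rule were chosen with earlier results of these data known. Other pathway genes named are among the 4 with the smallest p of their list in a comparison described. Figures used matplotlib 3.10.9.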

Additional observations from a re-analysis of the deposited data

Results flagged for a closer look

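The hepatectomy effect differed between crypts and IEC, by the test of the difference itself with edgeR, for 11 of the 29 genes. As crypt effect minus IEC effect on the log2 scale, the values were -1.32 for Dhcr7, -0.91 for Tm7sf2, -0.71 for Sc5d, -0.38 for Abcg5, -0.33 for Npc1l1, -0.29 for Abcg8 and -0.26 for Msmo1. They were 1.28 for Abca1, 0.39 for Mvd, 0.38 for Idi1 and 0.27 for Fdft1. Dhcr7, Tm7sf2 and Sc5d had effects of opposite sign in the fractions.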

How the results depend on the processing

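No gene reversed direction among its calls under any alternative run, and 3174 gene values kept their side of the threshold, while 96 lost and 31 gained a call. With 1 library left out, the number of the 29 genes called ranged from 22 to 25 for hepatectomy in crypts, 22 to 24 in IEC, 7 to 10 for the difference of those effects (7 without replicate 2 of sham IEC or replicate 1 of sham crypts), 21 to 24 for crypts against IEC in sham, 24 to 25 after hepatectomy, 19 to 24 for day 10 against day 0, 25 to 26 for day 20 against day 0 and 26 to 28 for day 20 against day 10. Whichever intestinal library was left out, a group kept a single library and the share of all genes called fell in every intestinal comparison. For day 10 against day 0 that share ranged from 32.5% to 48.5%, beside 43.6% with all libraries. For day 20 it ranged from 61.0% to 75.4% against day 0 (71.4% with all) and from 64.6% to 73.0% against day 10 (71.1% with all). The difference of the effects lost its call for Msmo1 in 10 alternatives, for Abcg8 in 8 and for Fdft1 in 6. Same-numbered libraries did not deviate together (correlations of -0.0161 to 0.028 in the intestine and -0.0301 to 0.0421 in the libraries labelled liver). With so few libraries per group, these correlations cannot show whether same-numbered libraries share an animal. With the replicate block, the number of the 29 genes called stayed at 24 for hepatectomy in crypts (36.2% of all genes) and 24 in IEC (37.2%). It stayed at 11 for the difference of those effects (18.0%). For crypts against IEC it stayed at 23 in sham (37.6%) and 25 after hepatectomy (51.3%). For day 20 it stayed at 26 against day 0 (70.1%) and 28 against day 10 (69.6%). For day 10 against day 0 it was 19 (38.7%) in place of 21. Low counts limit what can be said of Mylip in crypts and Npc1l1 at day 20.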
